A study of Drosophila melanogaster with 6 samples.

Results

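The JAK-STAT pathway genes upd3, dome, hop, Stat92E and Socs36E, together with chinmo, are 6 of the 8164 gene rows in a comparison of old and young fly midgut cells. They were chosen by name, and each had 1 row of its own naming no other gene. RNA had been sequenced from cells that were sorted for GFP out of dissociated midguts of Drosophila melanogaster, in 3 batches of old flies aged 59 to 65 days and 3 batches of young flies aged 6 to 8 days. All flies carried esg-GAL4 NP5130, a driver expressed in the stem cells of the gut and in their first daughters, with UAS-GFP and UAS-GFPnlacZ (N 1099) on a yw background, so the sort takes stem cells together with early daughters. No label ties the library columns of the table to an age, so values of single libraries, their spread and their depth are not given here. The results are those of the authors' own comparison, which gives for each row a log2 fold change between the ages, a mean abundance in CPM (reads scaled to library size), a p-value, and an FDR, the p-value adjusted over all rows. The sources used here do not name the numerator, so a sign says only whether genes differed in the same or the opposite direction. Rows with an FDR under 0.05 are termed called.

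JAK-STAT signalling carries cytokine signals to the nucleus. In the fly, secreted Unpaired ligands bind the receptor Domeless, which activates the Janus kinase Hopscotch, and the kinase phosphorylates the transcription factor Stat92E. Stat92E then switches on target genes, among them Socs36E, whose protein dampens the receptor complex and so closes a feedback loop. In the midgut the pathway is known for driving stem cell division and daughter cell differentiation when damaged enterocytes release ligand. Chinmo, a BTB domain and zinc finger transcription factor, is known as a Stat92E target in stem cells of the testis and as a timer of neuronal identity.

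The feedback inhibitor and chinmo differed between the ages in opposite directions, and the ligand, receptor, kinase and transcription factor did not pass the test. Of the 6 members, 1 was called positive and 1 negative in the authors' deposited table, against 7.1% of all rows called in either direction, 5.17% called positive and 1.94% called negative. Socs36E had a log2 fold change of -1.06 (FDR 0.0198) in the authors' deposited table. For chinmo the authors' deposited table gave 1.21 (FDR 0.00173), a value that 4 other rows nearly shared. At an FDR under 0.01 chinmo was the 1 member called, where 4.61% of all rows were called. The remaining 4 members had negative log2 fold changes between -0.66 and -0.085 in the authors' deposited table, and 5 of the 6 members thus shared the negative sign. The deposited comparison has no standard error, and the weight of any one library in these values was not tested.

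**Figure D1:**
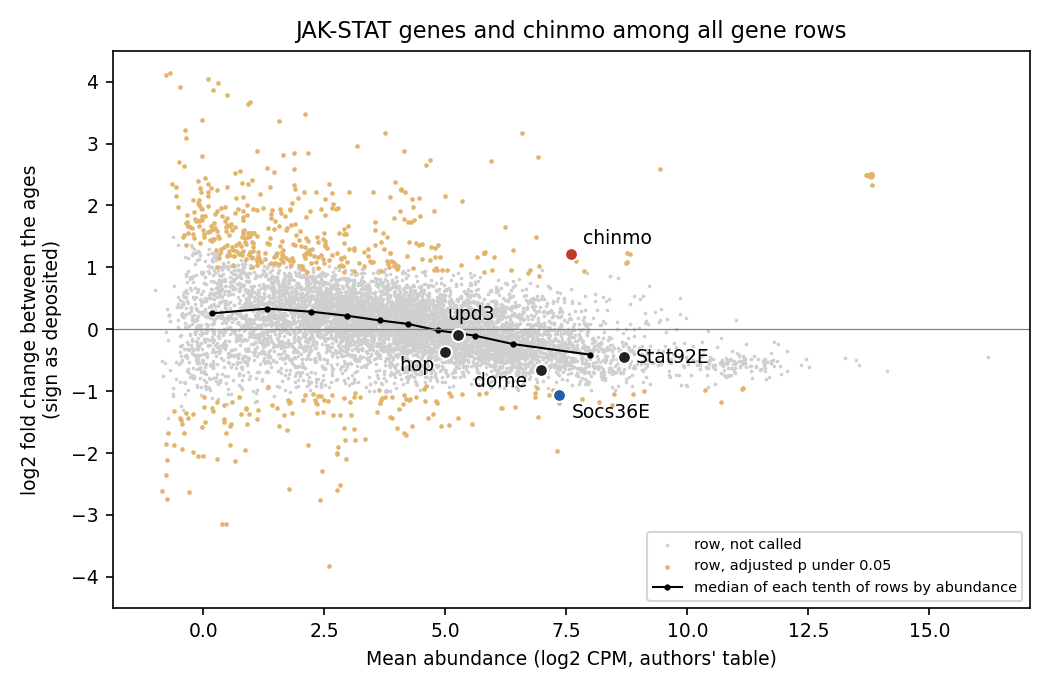
The log2 fold change between the ages (vertical axis, sign as deposited) is plotted against the mean abundance in log2 CPM (horizontal axis) for all rows but 10 that lie outside the drawn range, with called rows in orange. Large points are the 6 members, red for called positive, blue for called negative and black for not called, and the black line joins the medians of 10 bins of rows by abundance. The line lies at -0.41 in the most abundant bin, where chinmo lies at 1.21 and Socs36E at -1.06.

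Where a row lies in abundance matters for reading these signs, because abundant rows were mostly negative. With the rows sorted into 10 equal bins by abundance, in the top bin, of 131.3 CPM or more, the median log2 fold change was -0.41 and 82.4% of 817 rows were negative in the authors' deposited table, whereas the median over all rows was 0.045. Stat92E, Socs36E and chinmo belong to that bin, and dome to the bin below it, whose median was -0.24. Among all 1055 rows of at least 100 CPM, 847 were negative and 208 positive, and 33 were called positive (3.13%) and 21 negative (1.99%). Below, each member's value is therefore also given relative to the median of its own bin.

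The ligand gene upd3 (FBgn0053542) lies on X from 18171266 to 18178632 on the plus strand, in the dm3 build used for all positions here. Its log2 fold change was -0.085 (FDR 0.917) in the authors' deposited table, and its mean was 38.2 CPM. Relative to rows of like abundance the difference was 0.017, so the sign of upd3 turned with the centring. The related ligand gene upd2 is the next row on the chromosome, separated from upd3 by 34.2 kb. It had -0.80 at a mean of 8.60 CPM in the authors' deposited table, where its unadjusted p was 0.0164 and its FDR 0.134. Relative to its bin it was at -1.02. Neither ligand gene was called, and upd1, the founding ligand of the family, was not analysed here.

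The receptor gene dome (FBgn0043903; X from 19570090 to 19577549, minus strand) averaged 125.4 CPM, and its log2 fold change in the authors' deposited table was -0.66. The unadjusted p of dome was 0.0492 and its FDR 0.257 in the authors' deposited table, where 19.3% of all rows had an unadjusted p under 0.05. Relative to its bin, dome was at -0.42. Directly beside it on the same strand, 97 bases away, lies CG14225, which is named et (eye transformer) in RefSeq and encodes a related receptor that limits Domeless signalling. CG14225 had -0.93 (FDR 0.143) in the authors' deposited table, at only 1.06 CPM. Both receptor genes thus had a negative sign and neither passed the FDR threshold.

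The kinase gene hop (FBgn0004864; X from 11254932 to 11262130, minus strand) had a log2 fold change of -0.37 (FDR 0.622) in the authors' deposited table, and its mean was 31.7 CPM. Its bin had a median of -0.018, so the relative value was -0.35. The span of hop overlaps that of CG11750 on the opposite strand by 38 bases, and the library kit does not mark strand, so reads in that overlap cannot be told apart. CG11750 had -0.60 (FDR 0.260) at 9.77 CPM in the authors' deposited table. No other member overlapped a row of the table.

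The transcription factor gene Stat92E (FBgn0016917; 3R from 16361405 to 16378034, minus strand) had a mean of 411.4 CPM, a value not scaled to gene length. In the authors' deposited table its log2 fold change was -0.45 (FDR 0.578). Relative to the top bin it was at -0.036, which is to say that Stat92E had nearly the median value of rows of its own abundance. The sequence from ligand to transcription factor therefore held no call. A p above the threshold does not show that these 4 genes were equal between the ages.

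Socs36E (FBgn0041184; 2L from 18138668 to 18152410, minus strand), the feedback inhibitor, had a mean of 163.6 CPM. Its log2 fold change of -1.06 came with an unadjusted p of 0.00108 in the authors' deposited table, the p-value of rank 447 among 8164 rows. Relative to its bin the difference was -0.65, smaller in size than the deposited value, and it was the 8th lowest log2 fold change among the 817 rows of that bin. A further 6 listed inhibitors had a row, and none was called or had an unadjusted p under 0.05 in the authors' deposited table. The values of these genes in the authors' deposited table lay between -0.45 for E(bx), a chromatin remodelling subunit that represses Stat92E targets, and -0.074 for Socs44A, a second SOCS protein gene. Socs16D, the third gene of that family, had -0.22 (FDR 0.820) in the authors' deposited table. The repressor gene ken, which like chinmo encodes a BTB protein, was at -0.44, the phosphatase gene Ptp61F, whose row also names CG9173, at -0.23 and Su(var)2-10, which encodes the fly PIAS protein, at -0.10 in the authors' deposited table. Among the 7 genes listed as inhibitors that had a row, Socs36E alone was called, where 7.1% of all rows were. All 7 had a negative sign in the authors' deposited table, and relative to their bins 5 of the 7 were negative. The difference between Socs36E and the other inhibitors was not tested.

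**Figure D2:**
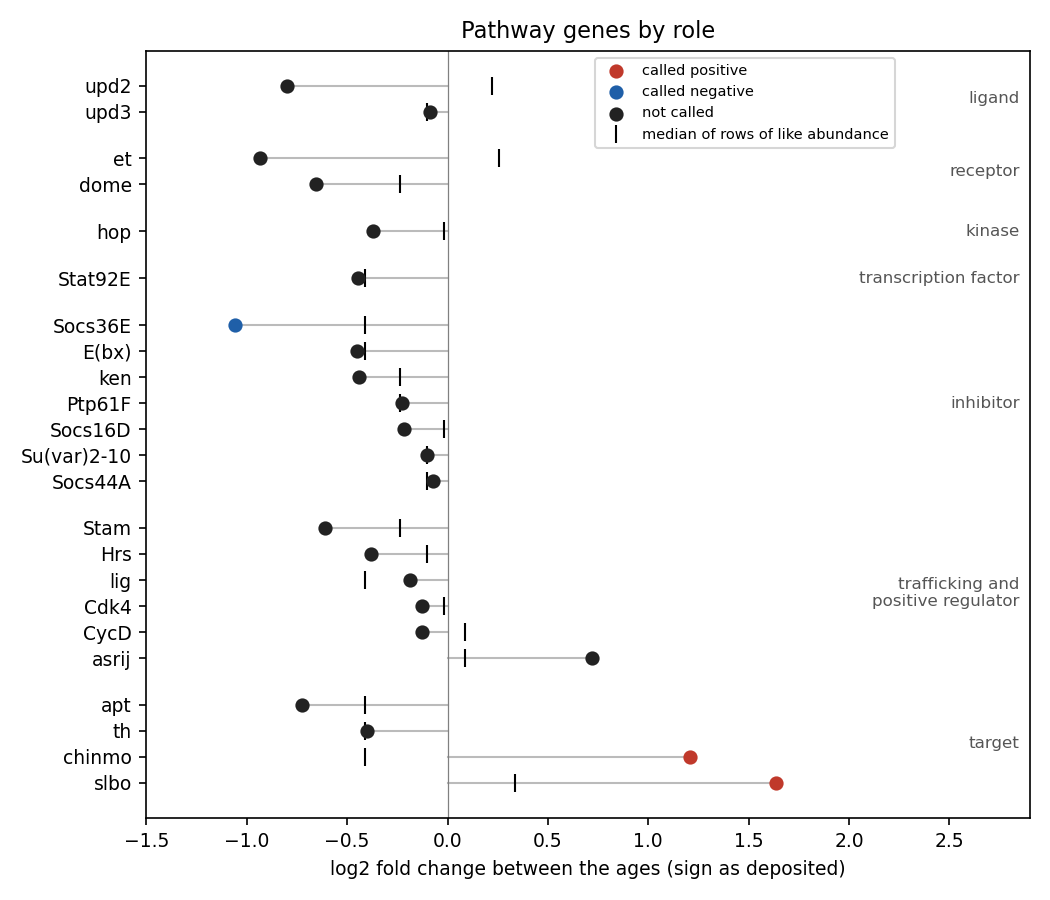
Each point is the log2 fold change between the ages (horizontal axis, sign as deposited) of 1 of 23 pathway genes with a row, grouped by role, in red for called positive, blue for called negative and black for not called. The roles are those of the list and were not tested. A vertical tick marks the median of the rows in the same abundance bin. Of the 23 genes, 20 lie left of 0, and 15 lie left of their own tick.

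The gene chinmo (FBgn0086758; 2L from 1651260 to 1698632, plus strand) had a mean of 193.1 CPM. Its log2 fold change of 1.21 had an unadjusted p of 5.7e-05, of rank 269 among all rows of the authors' deposited table. Relative to its bin the difference was 1.62, the largest in size of the 6 members on that scale, and it was the 21st highest log2 fold change of the bin. The rows ranked above it include 15 rows between 13204 and 14484 CPM with values close to each other. They also include CG30116 and CG42329, whose values nearly equal that of chinmo. The sign of chinmo was thus opposite to the deposited sign of the other members and of most rows of its abundance.

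The row of chinmo was one of several with nearly equal values. Within 0.1 of chinmo on both log2 scales lay 4 other rows of the authors' deposited table, CG30116, CG42329, dnt and the row CG3074;snoRNA:Or-CD1, and all 4 were called positive. CG42329 had 1.21 at 191.7 CPM and CG30116 had 1.22 at 194.8 CPM in the authors' deposited table, next to 1.21 at 193.1 CPM for chinmo. The deposited p-values of the 3 rows were also close, at 5.58e-05 and 5.1e-05 beside 5.7e-05 for chinmo in the authors' deposited table. Those of dnt and CG3074;snoRNA:Or-CD1 were larger, at 0.000129 and 0.000275 in the authors' deposited table. The 4 rows lie elsewhere on 2L and on 2R, and none overlaps chinmo. For comparison, the same window around Socs36E held 1 other row, CG32264;CG10858, at -0.98 in the authors' deposited table. Around upd3, dome, hop and Stat92E the window held 61, 11, 32 and 9 rows, none of them called. The window picks rows by fold change and abundance, which both bear on the p-value. Whether the rows in a window were called therefore adds nothing to the likeness of their values. Near-equal rows were also found more widely among abundant positive calls. Of the 33 at 100 CPM or more, 26 had another called row of the same sign within this window, against 9 of the 21 negative calls. Of those 33, 15 lay between 13204 and 14484 CPM with log2 fold changes from 2.34 to 2.51 in the authors' deposited table. Leaving out those 15, 12 of 18 positive calls had such a partner. Only called rows were counted here, and no such count was made over abundant rows not called. These shares therefore have no background. The labels and headers do not say how multiply mapped reads were counted, and whether chinmo and its near-equal rows share reads was not tested. This comparison of values was chosen after they had been seen.

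**Figure D3:**
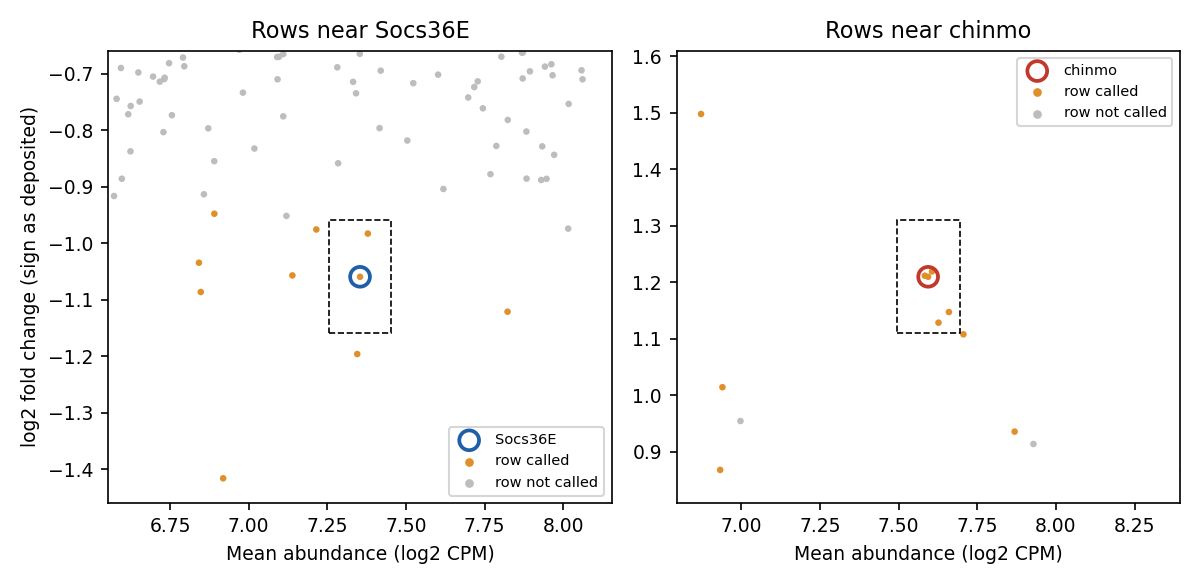
Both panels plot the log2 fold change (vertical axis, sign as deposited) against the mean abundance in log2 CPM (horizontal axis) for rows close to Socs36E (left) and chinmo (right), each marked by an open circle, with called rows in orange and the others in grey. The dashed box spans 0.1 to either side of the gene on both axes. It holds 4 other rows for chinmo, of which CG42329 and CG30116 lie inside the circle, and 1 for Socs36E.

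Of 10 listed targets of the pathway, 4 had a row. The border cell gene slbo, a C/EBP transcription factor gene, was called positive at 1.64 (FDR 0.000864) in the authors' deposited table, but at a mean of only 2.52 CPM. For apt, a target that limits STAT signalling in the ovary, the authors' deposited table gave -0.72 (FDR 0.193), and for th, the gene of the apoptosis inhibitor Diap1, -0.40 (FDR 0.604). Relative to their bins these were at -0.31 for apt and 0.0096 for th. The 4 listed target genes therefore did not share a sign, with chinmo and slbo positive and apt and th negative. Of the 4, 2 were called positive, where 5.17% of all rows were. Socs36E, also a Stat92E target, was listed with the inhibitors and was called negative at -1.06 (FDR 0.0198) in the authors' deposited table. The targets zfh1, vir-1, TotA, TotC, TotM and TotX were not analysed here.

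Endosomal and other listed regulators of the pathway held no call among 6 with a row, a count near the 7.1% of all rows called. The direction in which each of them acts on the pathway was not tested. The lowest value was -0.61 for Stam, an endosomal sorting gene (FDR 0.323), in the authors' deposited table. Highest was asrij, an endosomal protein gene of blood cell precursors, at 0.72 with an unadjusted p of 0.0424 and an FDR of 0.238 in the authors' deposited table. Hrs, lig, CycD and Cdk4 lay between -0.38 and -0.13 in the authors' deposited table.

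Taking the 17 pathway genes with a row beside the members, 1 was called positive and none negative, where 7.1% of all rows were called, and 15 had a negative sign. Their median log2 fold change was -0.23 in the authors' deposited table, against 0.045 over all rows. An unadjusted p under 0.05 was found for 5 of the 17, 2 positive and 3 negative, and for 19.3% of all rows. Relative to their bins the median was -0.11 and 11 of the 17 were negative.

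Genes known to act with or on chinmo in other tissues held no call either among 6 with a row, and 1 of them, ab, had an unadjusted p under 0.05. Over all rows 7.1% were called and 19.3% had such a p, so these counts lie near the background. The RNA-binding protein genes Imp and Syp, which set Chinmo levels in neural stem cells, had -0.38 and -0.60 in the authors' deposited table (FDR 0.696 and 0.353). Syp is listed there as CG17838. Eip93F, a hormone response gene that follows chinmo in developmental time, was at -0.63 (FDR 0.335) in the authors' deposited table. The metamorphosis gene br was at 0.39 and the sex determination gene dsx, which Chinmo regulates in the testis, at -0.048 in the authors' deposited table. The gene ab shares its row with a small RNA gene and CG32830, and had 0.92 at 1.49 CPM (FDR 0.133) in the authors' deposited table.

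Levels between genes were compared per kilobase of exon, from the transcripts that each row names. On that scale Stat92E was highest with 96.6 CPM per kb, followed by Socs36E with 46.7, chinmo with 31.4, dome with 25.7, upd3 with 17.2 and hop with 6.27 CPM per kb. The exon lengths behind these levels were 4.26, 3.50, 6.15, 4.88, 2.22 and 5.06 kb in the same order. Only 2 of the 4 transcripts of chinmo and 1 of the 2 of Socs36E had an entry in the annotation, so their lengths are less sure. These are means over all libraries of both ages. Because chinmo and Socs36E had log2 fold changes of opposite sign, the order within either age can differ from this one, and it was not computed here. No spread is given beside the order, since the library columns match no label and were not used.

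Of the 36 rows that lie within 3 places of a member along the chromosome, 20 had the sign of that member and 2 were called, or 5.56%, against 7.1% of all rows. The member's sign was shared by 5 of the 6 rows beside upd3, by 4 of 6 beside hop and 4 of 6 beside chinmo, by 3 of 6 beside dome, and by 2 of 6 beside Stat92E and 2 of 6 beside Socs36E. Beside chinmo the 6 rows lay between -0.031 and 0.36 and none was called in the authors' deposited table. Beside Socs36E they lay between -0.23 and 1.28, and CG5758 was called positive at 1.28 with a mean of 1.52 CPM in the authors' deposited table. Next to Stat92E lie metallothionein genes, of which MtnB was called negative at -1.38 with a mean of 3.17 CPM in the authors' deposited table. The other two had positive values there, 1.21 (FDR 0.0511) for MtnC and 0.23 (FDR 0.909) for MtnD in the authors' deposited table.

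**Figure D4:**
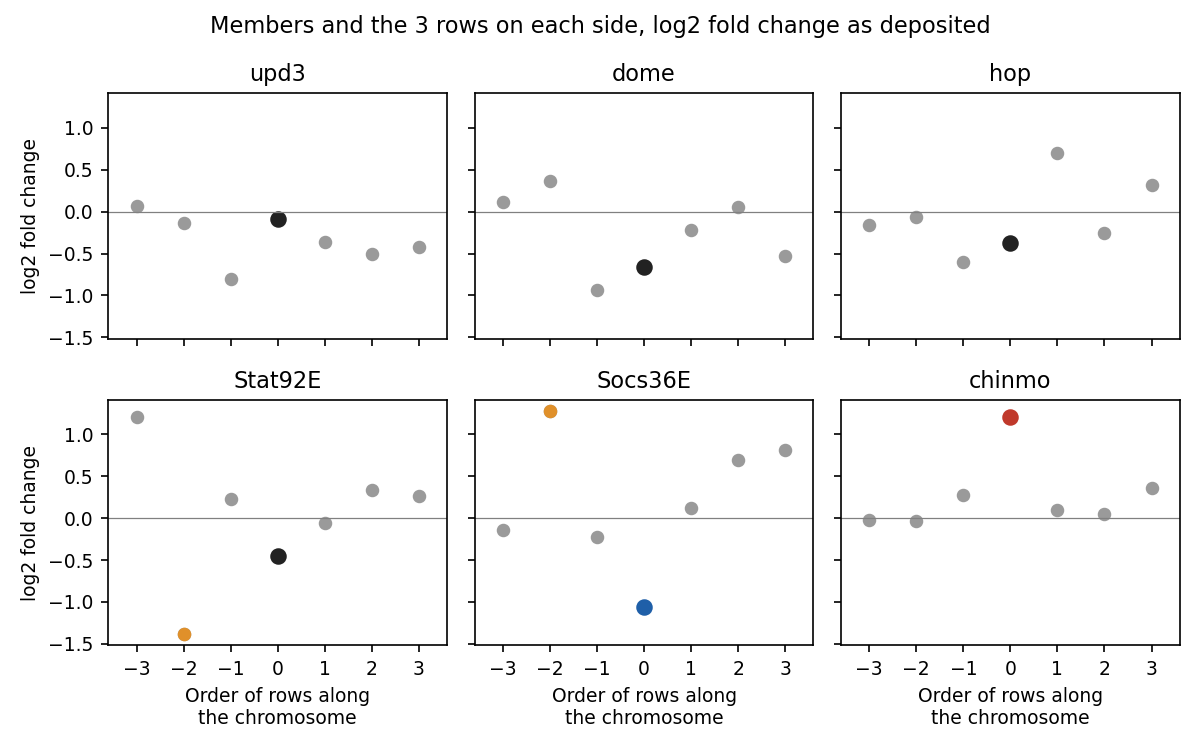
Each panel shows 1 member at place 0 and the 3 rows on each side of it in chromosomal order (horizontal axis), with the log2 fold change between the ages on the vertical axis (sign as deposited). Members are red, blue or black for called positive, called negative or not called, and neighbouring rows are orange where called and grey otherwise. The value of chinmo, 1.21, lies above all 6 of its neighbours and that of Socs36E, -1.06, below all 6.

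Marker genes of the sorted progenitors and of other gut cells were both detected, and their calls are to be read beside the 5.17% of all rows called positive and the 1.94% called negative. The driver's own gene esg had 834.7 CPM and Sox21a 188.1 CPM on average in the authors' deposited table, and the stem cell ligand gene Dl 26.5 CPM. None of these 3 progenitor markers was called, with log2 fold changes from -0.64 to 0.13 in the authors' deposited table. All 4 enteroendocrine markers had a positive sign. Of the 4, 2 were called, with 2.78 for Ast-C and 0.87 for npf in the authors' deposited table. Of 4 enterocyte markers 2 were called negative. These were Jon25Bi and Ance, whose mean levels were 1.81 and 1.47 CPM in the authors' deposited table. The enterocyte gene Myo31DF stood at 494.8 CPM with -0.56 (FDR 0.402) in the authors' deposited table, and nub, a transcription factor gene of enterocytes, had the opposite sign, at 0.84 (FDR 0.221) in the authors' deposited table. Both visceral muscle markers with a row were called positive. However, sls is one of the 15 rows above 10000 CPM that were called positive, and up had a mean of only 2.61 CPM. Of 2 haemocyte markers Sr-CI was called positive, at a mean of only 2.65 CPM, and crq negative, at 226.4 CPM. In bulk RNA of sorted cells, fewer cells of a type and less RNA per cell cannot be told apart, and the part of these cell types in the values of Socs36E and chinmo was not tested.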

How the data were processed

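RNA of sorted midgut cells from 3 batches of old and 3 batches of young flies was sequenced. The submitters' processing notes name, without role or order, edgeR, TopHat 1.2.0, Bowtie and FastQC, and dm3 as the build. The name of the deposited table speaks of an exact test. The authors deposited per row the log2 fold change, log2 CPM as mean abundance, p-value and FDR. Recomputed by the Benjamini-Hochberg method over 8164 rows, the FDR differed from the deposited one by at most 2.56e-15. The 12 columns of values per library match no sample label and were not used, so the planned count fit, depth and intervals were not run.

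The members and lists were chosen with earlier results of these data known. Named were the 6 members, listed genes, and neighbouring or overlapping rows. Rows were sorted into 10 equal groups by mean log2 CPM. Deposited starts count from 0 and were written from 1: of 4737 rows with 1 matched transcript, 539 then had the annotated length, against 138 without this step. Gene identifiers and exon lengths came through transcript identifiers from the BDGP6 annotation of Ensembl release 115, with at least 1 match for 7726 rows. The adjustments were tested on simulated p-values. Tools were matplotlib 3.10.9, scipy 1.17.1, pandas 2.3.3 and numpy 2.4.6 under Python 3.11.15.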

Additional observations from a re-analysis of the deposited data

How the results depend on the processing

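Of the 9 settings tried for each member, 7 leave the deposited log2 fold change as it is and the 2 centrings keep the deposited FDR, so they bear on thresholds, adjustments and the sign alone. At an adjusted p under 0.01, 1 member was called, and Socs36E was lost. Under a Holm adjustment over all rows, 0 members were called from the p-values of the authors' exact test. The adjusted p was 1 for Socs36E and 0.450 for chinmo. The share of all rows called this way was not counted, but the limit lay between p-value ranks 157 and 223 of 8164 rows. Ance, of rank 157, had a Holm-adjusted p of 0.0113, and slbo, of rank 223, had 0.187. Rank 269 for chinmo and rank 447 for Socs36E lie beyond that limit. An unadjusted p under 0.05 was found for 3 members and for 19.3% of all rows. Of the members, only upd3 turned its sign, to 0.017 relative to rows of like abundance. At a minimum of 5 CPM the other pathway genes held 0 calls, because slbo lies below it. Of the 15 left, 3 had an unadjusted p under 0.05, against 19.3% of all rows without that minimum. The shares among rows of at least 5 CPM were not counted, so these counts have no matched background. Calls were denser at low abundance. The lowest abundance bin held 119 positive and 41 negative calls among 817 rows. The bin from 36.9 to 64.0 CPM held 16 and 5 among 816 rows. Leaving out the row of Ptp61F, a setting chosen after seeing the data, gave a median of -0.30. Normalization, filters, DESeq2 and leaving out libraries were not run, for want of library columns matched to labels. No paired analysis was possible because the columns carry no sample label.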

Other observations

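The family of BTB domain transcription factors to which chinmo belongs was looked at after the data were seen. Of 12 other listed members with a row, none was called in the authors' deposited table and 1 had an unadjusted p under 0.05, where 7.1% of all rows were called and 19.3% had such a p. Their log2 fold changes ranged from -0.64 for bab1 to 0.92 for ab in the authors' deposited table and had a median of -0.36. The abundant members lola and ttk were at -0.36 and -0.37 (FDR 0.666 and 0.622) in the authors' deposited table. Relative to the medians of their abundance bins, 5 of the 12 were negative.

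Besides the rows close to chinmo, 4 further abundant positive calls had values close to each other in the authors' deposited table: SP1070, CG42249, Prosap and Tsp42Ee, with log2 fold changes of 1.21, 1.23, 1.09 and 1.07 at 446.9, 432.3, 432.4 and 422.6 CPM.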
